A study of Mus musculus with 9 samples.

Results

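The miR-193 and miR-365 miRNAs of mouse adipose tissue were followed through BAT, SAT and VAT. They were taken from the table of small RNA levels as every row whose name begins with miR-193a, miR-193b or miR-365, with both arms of each precursor. The rule found 7 of the 1251 miRNAs in the table. These are miR-193b-5p, miR-193b-3p, miR-365-1-5p, miR-365-3p and miR-193a-3p, and 2 further rows, miR-193a-5p and miR-365-2-5p. The libraries came from male C57BL/6J mice, for which no transgene or gene deletion is named, aged 5 to 6 weeks when the study began. All of them received a high fat diet (HFD), with 45% of the energy from fat, 20% from protein and 35% from carbohydrate, for 11 weeks, and were fasted for 4 h before tissue collection. BAT was the interscapular brown fat, SAT the inguinal and VAT the epididymal white fat, with 3 libraries each (BAT 12, 15 and 20, SAT 14, 19 and 20, VAT 14, 17 and 20, by the numbers in the sample titles). No low fat or chow libraries were analysed here, so the comparisons are between depots under one diet. SAT and VAT together are called WAT.

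A miRNA is a short RNA that guides Argonaute proteins to messenger RNAs. It is cut from a hairpin precursor, whose sides give a 5p and a 3p arm, and it recognises its targets mainly through its seed, bases 2 to 8. MiR-193b and miR-365 come from a small cluster that is known as enriched in brown fat. In cultured brown preadipocytes the cluster was needed for the brown fat programme and acted on Runx1t1, an inhibitor of adipogenesis, whereas mice that lack the cluster were found to form brown fat.

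The precursors lie at 2 places in the genome (GRCm38). Mir193b is at chr16:13449523-13449601 and Mir365-1 at chr16:13453840-13453926, both on the + strand with 4238 bases between them. RefSeq places both within the long noncoding RNA genes Gm53058 and Gm32817 of the same strand, which start 1571 bases before Mir193b. In GENCODE M21 both fall within the antisense gene Gm15738, outside its exons. Mir193a is at chr11:79711969-79712034 and Mir365-2 at chr11:79726400-79726511, also on the + strand, with 14365 bases between them, and GENCODE M21 has no other gene there. The mature sequences of the 7 miRNAs, from RefSeq (GRCm38.p6), are given because their seeds decide which of them can be read as one family. The capitals mark the seed.
miR-193b-3p: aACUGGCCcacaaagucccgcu
miR-193a-3p: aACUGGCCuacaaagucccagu
miR-193b-5p: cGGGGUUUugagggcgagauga
miR-193a-5p: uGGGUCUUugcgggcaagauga
miR-365-1-5p: aGGGACUUuugggggcagaugug
miR-365-2-5p: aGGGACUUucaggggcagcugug
miR-365-3p: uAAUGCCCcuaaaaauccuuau
MiR-193b-3p and miR-193a-3p share the seed ACUGGCC, which no other of the 1679 mature mouse miRNAs searched had. They differ at 3 of 22 bases, all outside the seed (C9U, G20A and C21G, with the miR-193b-3p base first and positions counted from the 5′ end). MiR-365-1-5p and miR-365-2-5p share the seed GGGACUU and differ by U10C, G11A and A19C. The 5p arms of miR-193b and miR-193a have different seeds and differ at 5 bases. MiR-365-3p has the same sequence at both places, so that its level is the sum of the chromosome 16 and chromosome 11 precursors, which cannot be told apart. The 5p arms differ between the 2 miR-365 precursors and are the rows that separate them.

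The hairpins of the 2 miR-193 precursors are shown because their arms behaved differently between depots, and capitals mark the 5p arm and then the 3p arm.
Mir193b: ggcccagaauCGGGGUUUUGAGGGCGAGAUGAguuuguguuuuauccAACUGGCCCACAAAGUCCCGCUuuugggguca
Mir193a: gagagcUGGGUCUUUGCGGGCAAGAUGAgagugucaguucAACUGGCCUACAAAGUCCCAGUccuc
In both, the arms face each other across a short loop.

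The deposited values are log2 levels with an offset, and their lowest value, 3.32, was shared by 839 miRNAs in every library. A level is always given on this log2 scale, and a difference is a difference of such levels. Folds against a low level are understated because of the offset, and a fold against a depot at the lowest value is a lower bound. The table has no read counts and the authors give only an approximate depth per sample. The depth of each library is unknown, so that error is given as the spread among libraries of the same depot. Limma was run on the 343 miRNAs that exceeded the lowest value in 3 or more of the 9 libraries, and all 7 miR-193 and miR-365 rows were among them. MiR-365-1-5p passed this filter through its BAT libraries alone, so that a difference from BAT was given by the filter.

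The miRNAs of the chromosome 16 cluster were high in BAT and much lower in both white depots. MiR-193b-3p, the abundant arm of miR-193b, fell 12.2-fold in VAT and 10.9-fold in SAT. Its partner miR-193b-5p and the miR-365-1 arm that only this cluster makes were at or near the lowest value in white fat. In the same libraries miR-193a-3p, with the same seed as miR-193b-3p, moved the other way and was 7.60-fold higher in VAT and 13.1-fold higher in SAT than in BAT. MiR-365-3p, to which both loci contribute, differed far less. The other chromosome 11 rows, miR-365-2-5p and miR-193a-5p, were also lower in white fat. Their log2 differences were -3.86 and -2.05 in VAT/BAT, both past the threshold, and -2.34 and -0.79 in SAT/BAT, neither past it.

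**Figure D1:**
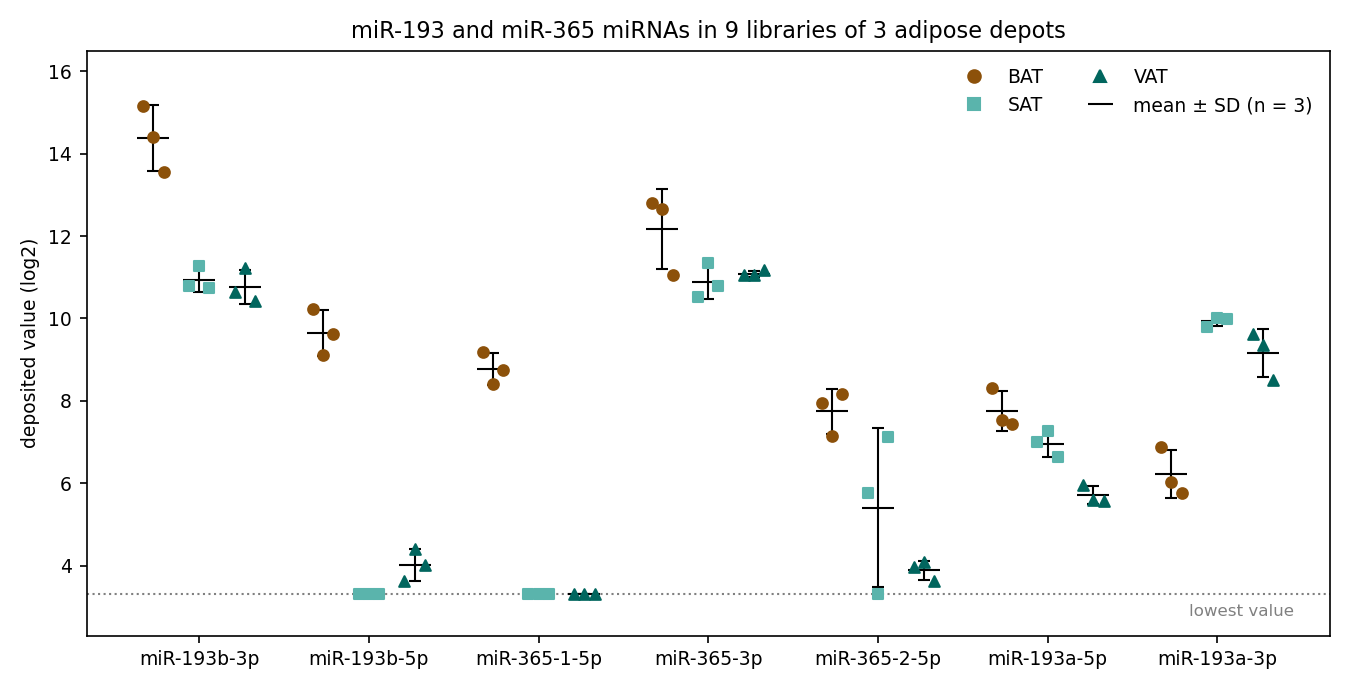
Levels (log2, vertical axis) of the 7 miR-193 and miR-365 miRNAs (horizontal axis) in the 3 libraries of each depot, with mean and SD as black bars and the lowest value of the table as a dotted line. The BAT points of miR-193b-3p, miR-193b-5p and miR-365-1-5p lie above all points of SAT and VAT, and those of miR-193a-3p below them.

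MiR-193b-3p had levels of 15.16, 14.41 and 13.56 in BAT 12, 15 and 20. SAT 14, 19 and 20 had 10.79, 11.29 and 10.74, and VAT 14, 17 and 20 had 10.65, 11.21 and 10.43. BAT did not overlap with either white depot, and the ranges of SAT and VAT overlapped. It ranked 16, 21 and 33 of 1251 in the BAT libraries and between 66 and 83 in the white ones. Mean and SD over 3 libraries were 14.38 ± 0.80 for BAT, 10.94 ± 0.30 for SAT and 10.77 ± 0.40 for VAT. In limma with Benjamini-Hochberg adjustment over the 343 miRNAs, VAT/BAT gave -3.61 (standard error 0.46) with an adjusted p of 0.000865. SAT/BAT gave -3.44 (standard error 0.46) with an adjusted p of 0.00463. VAT and SAT differed by -0.17, with a 95% interval from -0.87 to 0.53 (adjusted p = 0.707). The order was therefore BAT above both white depots, with SAT and VAT not separated beyond their spread.

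MiR-193b-5p, the other arm of the same hairpin, had 10.23, 9.10 and 9.62 in BAT, 3.63, 4.40 and 4.02 in VAT and the lowest value in each SAT library. All BAT libraries were above all white ones. SAT was at least 80.5-fold below BAT, and the difference in VAT/BAT was -5.63 (standard error 0.37, limma adjusted p = 0.000207). With the lowest value subtracted and 1 added before log2 this difference became -6.89. The 3 VAT libraries were all above the SAT ones, by 0.70 on average, which was not past the threshold (adjusted p = 0.0895). With the lowest value subtracted and 1 added, it was (2.74, limma adjusted p = 0.0265), so that this call depended on the offset of a miRNA near the lowest value. More miRNAs were above the lowest value in each VAT library (323 to 349) than in SAT (240 to 285) or BAT (255 to 273). The part of this in the VAT/SAT difference was not tested.

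MiR-365-1-5p is made only from the chromosome 16 precursor. Its levels were 9.18, 8.40 and 8.75 in BAT and the lowest value in all 6 white libraries, at least 43.9-fold lower in SAT and in VAT. No p is given, because the filter fixed this difference. Its centred profile over the 9 libraries lay at a root mean square difference of 0.43 from that of miR-193b-5p, the closest to miR-193b-5p among all tested miRNAs. Both being at or near the lowest value in white fat makes them alike, and miR-6240 was closer to miR-365-1-5p (0.38). In BAT both were highest in library 12 and lowest in library 15.

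MiR-365-2-5p, made only from the chromosome 11 precursor, had 7.94, 7.14 and 8.16 in BAT. In white fat it had 5.77, 3.32 and 7.12 in SAT and 3.96, 4.08 and 3.63 in VAT. BAT was above every white library, but SAT 20 missed the lowest BAT library by little and SAT 19 was at the lowest value. The difference in VAT/BAT was -3.86 (standard error 0.33, limma adjusted p = 0.000283). In SAT/BAT it was -2.34, with a 95% interval from -5.10 to 0.42 (adjusted p = 0.145). It was -1.30 without SAT 19 and -3.20 without SAT 20, neither past the threshold, and it passed with all 9 libraries in one fit (adjusted p = 0.0435). Of the summed level of the 2 miR-365 5p arms above the lowest value, miR-365-2-5p made 29.3%, 28.5% and 39.6% in BAT 12, 15 and 20. In the white libraries with any such level, all of it was miR-365-2-5p.

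MiR-365-3p had 12.81, 12.65 and 11.05 in BAT, whereas SAT had 10.53, 11.34 and 10.79 and VAT 11.05, 11.05 and 11.18. BAT 12 and BAT 15 were above all white libraries, whereas BAT 20 lay within their range. VAT/BAT gave -1.08 (95% interval from -2.28 to 0.12, limma adjusted p = 0.0967), and SAT/BAT gave -1.29 (95% interval from -2.76 to 0.18, limma adjusted p = 0.135). Without BAT 20 it was -1.64 in VAT/BAT (adjusted p = 0.00136) and -1.85 in SAT/BAT (adjusted p = 0.0137). With both white depots together against BAT it was -1.18 (adjusted p = 0.0306), a call that 7 of the 9 fits without one library lost, with values from -0.87 to -1.75. Leaving out no other single library brought VAT/BAT or SAT/BAT past the threshold. With all 9 libraries in one fit SAT/BAT passed it (adjusted p = 0.0454).

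MiR-193a-3p had 6.89, 6.04 and 5.76 in BAT, whereas SAT had 9.80, 10.02 and 9.998 and VAT 9.62, 9.35 and 8.50. Every white library was above every BAT library. It rose by 2.93 in VAT/BAT (standard error 0.43, limma adjusted p = 0.00162). In SAT/BAT it rose by 3.71 (standard error 0.32, limma adjusted p = 0.00113). The VAT libraries were below the SAT ones, by -0.79 on average (95% interval from -1.61 to 0.03, adjusted p = 0.155).

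MiR-193a-5p, from the same hairpin as miR-193a-3p, had 8.31, 7.53 and 7.44 in BAT. SAT had 6.995, 7.27 and 6.63 and VAT 5.96, 5.60 and 5.57. The 3 depots did not overlap, in the order BAT, SAT and VAT. It fell by 2.05 in VAT/BAT (standard error 0.31, limma adjusted p = 0.00183). In SAT/BAT the difference was -0.79 (95% interval from -1.61 to 0.02, adjusted p = 0.107). In VAT/SAT it was -1.25 (standard error 0.21, adjusted p = 0.0276), a call that 5 of the 6 fits without one library lost.

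**Figure D2:**
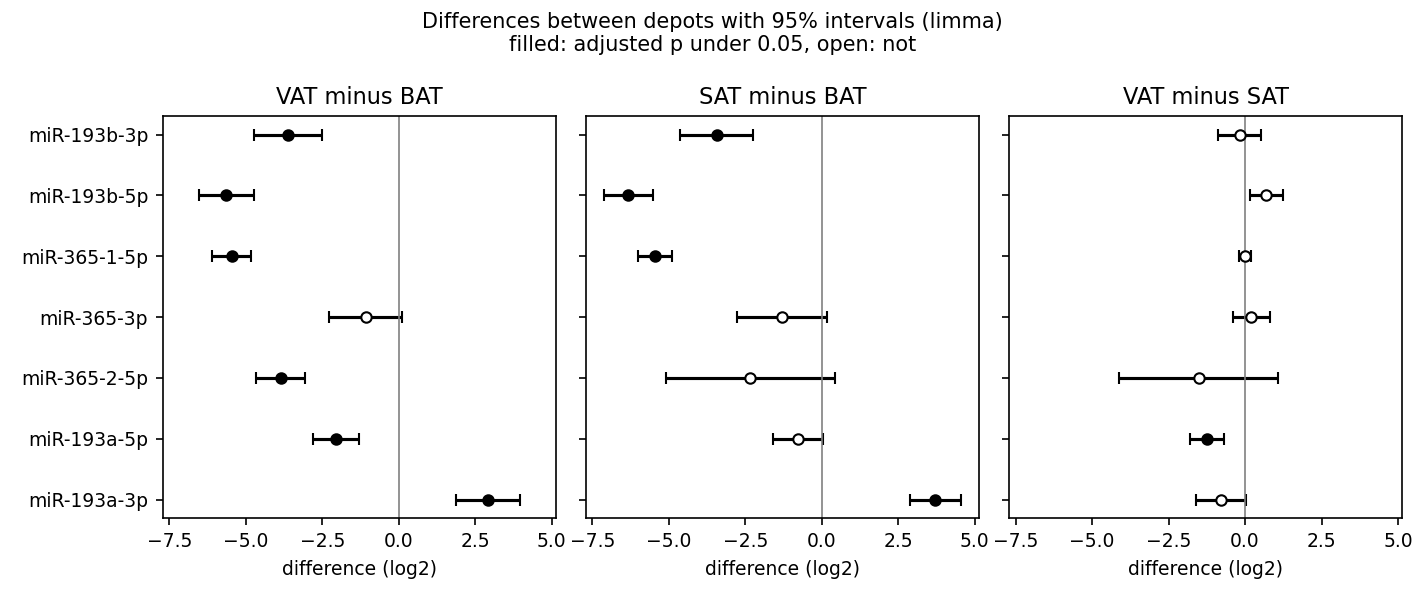
Differences in log2 level (horizontal axis) of the 7 miRNAs (vertical axis) in VAT/BAT, SAT/BAT and VAT/SAT, each with its 95% interval from limma and filled where the adjusted p was under 0.05. MiR-193a-3p lies to the right of 0 against BAT and the other miRNAs to the left, and in VAT/SAT the one filled point is miR-193a-5p, at -1.25.

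In VAT/BAT 6 of the 7 miRNAs passed the threshold (5 lower and 1 higher in VAT), against 66.2% of all tested miRNAs, 26.8% lower and 39.4% higher. In SAT/BAT 4 of 7 passed (3 lower, 1 higher), against 40.5% of all tested, 18.1% lower and 22.4% higher. In VAT/SAT 1 of 7 passed, lower in VAT, against 16% of all tested and 7.58% lower. With both white depots against BAT all 7 passed (6 lower, 1 higher), against 64.1% of all tested, 26.8% lower and 37.3% higher. MiR-365-1-5p is among those lower in each comparison with BAT, through the filter. The count of calls in either direction was thus near the background in VAT/BAT, SAT/BAT and VAT/SAT. In VAT/SAT 8.45% of all tested miRNAs were higher in VAT and 0 of the 7, of which 1, miR-193b-5p, was higher at an unadjusted p under 0.05 in limma. Libraries of the compared depots did not overlap for 6 of the 7 in VAT/BAT, 5 lower and 1 higher in VAT, where this held for 72% of all tested, 27.7% and 44.3%. In SAT/BAT it was 6 of the 7, 5 lower and 1 higher in SAT, against 52.5%, 21% and 31.5%. In VAT/SAT it was 3 of the 7, 2 lower and 1 higher in VAT, against 39.4%, 16.9% and 22.4%. In WAT/BAT it was 6 of the 7, 5 lower and 1 higher in WAT, against 48.7%, 20.7% and 28%. As a description, the 7 had a median difference of -3.61 in VAT/BAT, where all tested miRNAs had 0.40, and of -2.34 in SAT/BAT, where all had 0.26. VAT/BAT, SAT/BAT and WAT/BAT share the BAT libraries and are not independent of each other. In bulk tissue, fewer cells of a type and less of a miRNA per cell cannot be told apart.

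A factor that scales a whole library cancels in a difference between 2 of its miRNAs only where both are well above the offset. It does not cancel in the pairs with miR-193b-5p or miR-365-1-5p, which were at or near the lowest value in white fat. Within libraries 6 such comparisons of 2 miRNAs were made between BAT and WAT, with an exact permutation test over libraries (two-sided, 3 against 6). In each the BAT and WAT libraries did not overlap, which gives the smallest p the design allows, 0.0238, and the same value after Benjamini-Hochberg adjustment over the 6. For the pair with miR-365-1-5p the filter largely fixed the separation, and its values are given as a description. Of the single miRNAs, miR-193b-3p and miR-193a-5p were higher in every BAT library than in every white one, and miR-193a-3p lower. This by itself separates miR-193b-3p minus miR-193a-3p, the miR-193a arm difference and the share of miR-193a-3p. The p of these adds nothing to the single miRNAs. Of the 6, 2 were chosen after their values were seen, the miR-193a arm difference and the share of miR-193a-3p.

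The arms of miR-193b kept the same order in every library, and 3p exceeded 5p by 4.73 ± 0.70 in BAT (SD, n = 3) and by 7.18 ± 0.55 in WAT (SD, n = 6). The WAT value is a lower bound in SAT, where the 5p arm was at the lowest value, and the difference between BAT and WAT shrank from 2.46 to 0.50 when a further 40 was added before log2 (exact permutation p = 0.238), and was 4.73 with the lowest value subtracted and 1 added (exact permutation p = 0.0238). For miR-365-3p against miR-365-1-5p the values were 3.39 ± 0.998 in BAT (SD, n = 3) and 7.66 ± 0.29 in WAT (SD, n = 6), where the 5p arm was at the lowest value throughout. Their difference of 4.27 was 2.09 with a further 40 added and 7.56 with the lowest value subtracted and 1 added, so that its size is set by the offset.

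The arms of miR-193a changed order. In BAT 12, 15 and 20 miR-193a-3p was below miR-193a-5p by differences of -1.42, -1.49 and -1.68. In SAT it was above, by 2.81, 2.75 and 3.37, and in VAT by 3.66, 3.75 and 2.92. The mean difference between WAT and BAT was 4.74, higher in 6 of 6 white libraries, and it stayed between 3.82 and 5.05 in the 11 alternatives. Its exact permutation p of 0.0238 was fixed by the separation of each arm. Both arms were above the lowest value in all 9 libraries, so that the lowest value did not set this difference. Among the 84 precursors with both arms tested, 9 (10.7%) had one arm higher and the other lower in WAT/BAT past the threshold, miR-193a among them. MiR-193a had the second largest gap between the WAT/BAT differences of its arms, 4.74 against a median of 1.17, and miR-193b, with 2.46, was at rank 18.

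**Figure D3:**
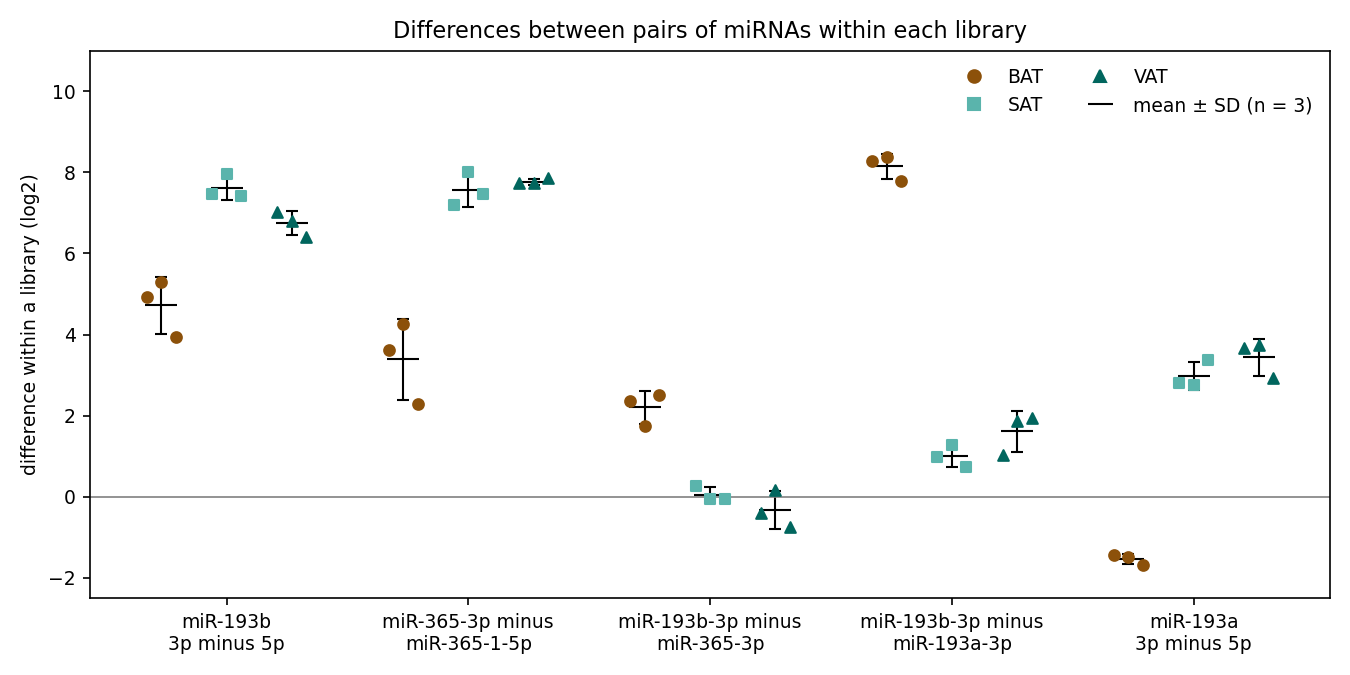
Differences between 2 miRNAs of the same library (log2, vertical axis) for 5 pairs (horizontal axis), by depot, with mean and SD. BAT lies apart from SAT and VAT in each pair, and the miR-193a pair is below 0 in the 3 BAT libraries and above 0 in the 6 white ones.

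The share of miR-193a-3p among miRNAs with the miR-193-3p seed was higher in white fat, while miR-193b-3p had the higher level of the pair in all 9 libraries. MiR-193b-3p exceeded miR-193a-3p by 8.28, 8.37 and 7.80 in BAT 12, 15 and 20, and by 0.74 to 1.27 in SAT and 1.03 to 1.94 in VAT. As a share of the summed level of both above the lowest value, miR-193a-3p made 0.295%, 0.255% and 0.365% in the BAT libraries, from 29.3% to 37.4% in SAT and from 20.4% to 32.8% in VAT. The mean share was 0.305% ± 0.056 in BAT (SD, n = 3) and 29.1% ± 6.90 in WAT (SD, n = 6). The sum itself, as log2 with the lowest value added back, had a mean and SD over 3 libraries of 14.38 ± 0.80 for BAT, 11.52 ± 0.23 for SAT and 11.18 ± 0.40 for VAT. It was thus 2.86 below BAT in SAT and 3.20 in VAT, less than the 3.44 and 3.61 by which miR-193b-3p itself differed. The higher miR-193a-3p of white fat made up a small part of the gap and did not close it.

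**Figure D4:**
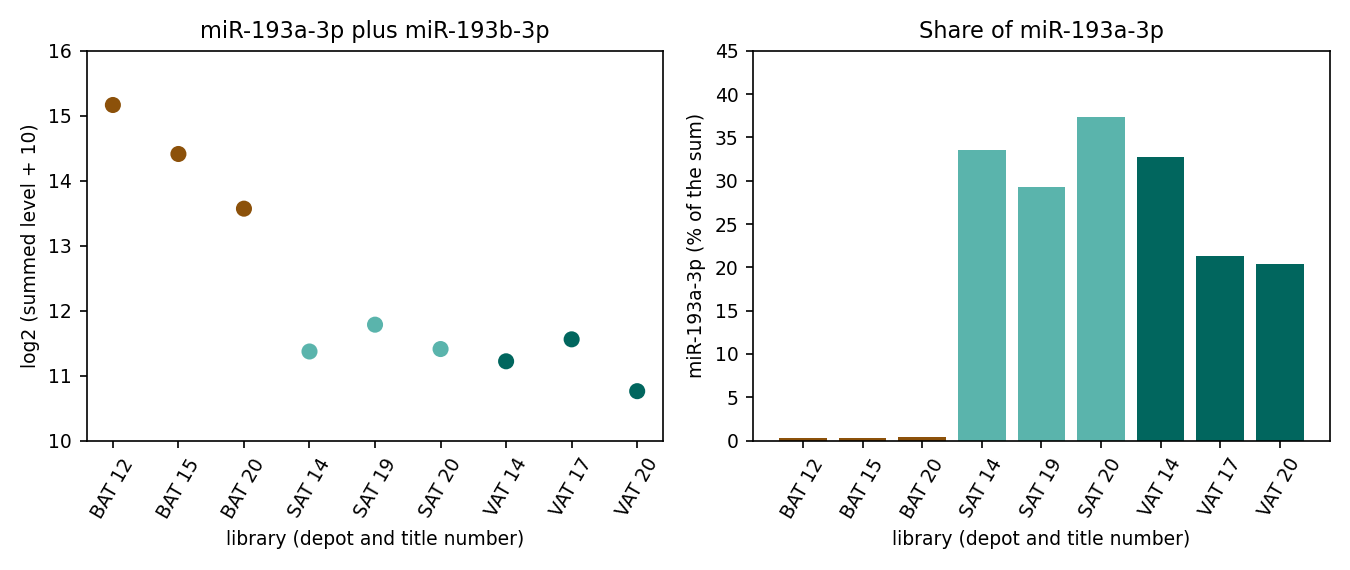
Summed level of miR-193a-3p and miR-193b-3p (left, log2 of the sum plus the lowest value of 10) and percentage of that sum that was miR-193a-3p (right) in each library (horizontal axis). The 3 BAT libraries have the highest sums and shares under 1%, whereas the white libraries have shares from 20.4% to 37.4%.

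The abundant arms of the 2 chromosome 16 precursors did not keep one ratio. MiR-193b-3p was above miR-365-3p by 2.35, 1.75 and 2.52 in BAT. In SAT the difference was 0.26, -0.05 and -0.05, and in VAT -0.40, 0.16 and -0.74. The 2 miRNAs were therefore at about the same level in white fat and 2.21 ± 0.40 apart in BAT (SD, n = 3), and the difference between WAT and BAT of -2.34 stayed between -2.57 and -2.19 in the 11 alternatives. Part of miR-365-3p comes from Mir365-2 on chromosome 11, and that part was not measured by itself.

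RefSeq places Mir193b, whose arms were both lower in the white depots, and Mir365-1 within the same transcripts, and the start of these is shown for its position. It is the promoter window of Gm53058, shared with Gm32817, at chr16:13447702-13448001 on the + strand (GRCm38.p6), from 250 bases before the annotated start.
Gm53058 promoter: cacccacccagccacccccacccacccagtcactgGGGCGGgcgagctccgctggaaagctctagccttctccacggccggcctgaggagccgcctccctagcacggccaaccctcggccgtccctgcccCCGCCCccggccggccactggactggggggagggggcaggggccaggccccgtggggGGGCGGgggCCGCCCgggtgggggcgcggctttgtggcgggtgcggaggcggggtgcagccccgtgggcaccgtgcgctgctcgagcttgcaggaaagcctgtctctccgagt
The capitals mark 4 GC boxes, GGGCGG or its complement CCGCCC, 2 on each strand. At least one GC box was in 35.7% of the 32851 mouse promoter windows of this length. The window is 76.7% G and C, against a median of 52.7% over all promoter windows, and holds 26 CpG dinucleotides against a median of 7. AGGTCA, a half-site of nuclear receptors, and TATAAA, searched on both strands, were not in this window, and they were in 16.3% and 13.6% of all windows. No readout of this promoter was measured, and a match is a description of letters only.

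The miRNAs outside the family with the closest profiles over the 9 libraries, by the root mean square difference after centring, are given as a description. For miR-193b-5p they were miR-378d (0.45), miR-129-5p (0.56) and miR-5130 (0.66), and for miR-365-1-5p miR-6240 (0.38), miR-129-5p (0.48) and miR-5130 (0.48). MiR-378d, named for miR-193b-5p, resembles miR-378a, which the gene for PGC-1β hosts. MiR-193b-5p and miR-365-1-5p are the members meant next. Both members were at or near the lowest value in white fat, and sharing it there fixes much of such a likeness. For miR-193b-3p the closest were miR-1900 (0.29), miR-6366 (0.43) and miR-3960 (0.44). Each of these was at or near the lowest value in white fat, whereas miR-193b-3p was between 10.43 and 11.29 there. For miR-365-3p they were miR-3963 (0.23), miR-107-3p (0.31) and miR-30e-3p (0.36), and for miR-193a-3p miR-500-3p (0.47), miR-874-3p (0.49) and miR-152-5p (0.50). MiR-3963 had means of 4.39 in BAT, 3.32 in SAT and 3.42 in VAT, far below miR-365-3p and at or near the lowest value in white fat. MiR-874-3p was at the lowest value in BAT. The profile of miR-193a-3p was far from that of miR-193b-3p (3.25).

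Of 25 other miRNAs known as regulators of brown and beige fat, 21 were tested. In WAT/BAT 6 were lower, 9 were higher and 6 did not pass, against 26.8% lower and 37.3% higher of all tested miRNAs. The median difference was -0.20 against 0.33 for all tested miRNAs. The largest differences were of miR-196a-5p, a miRNA of white fat browning (5.82 higher in WAT), miR-129-5p (-4.99) and miR-455-3p, which acts in brown adipogenesis (-4.70). The list thus held calls in both directions, as all tested miRNAs did, and it shares miR-133a-3p and miR-133b-3p with the list of muscle miRNAs. For miR-455-3p the mean and SD over 3 libraries were 12.15 ± 0.65 for BAT, 7.45 ± 0.84 for SAT and 7.45 ± 1.20 for VAT.

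The depots carried marks of other cells that differed between libraries. Beside the counts of the lists below, 37.3% of all tested miRNAs were called higher in WAT/BAT and 26.8% lower. Messenger RNAs that define brown fat, such as Ucp1, were not measured here. MiR-196a-5p, of the Hox clusters and high in fat of the hind body, was at the lowest value in the 3 BAT libraries and at 10.73 ± 0.20 in SAT (SD, n = 3), but at 7.56 ± 3.13 in VAT (SD, n = 3), and miR-10b-5p was 2.59 higher in WAT. With them the list of hind body white fat had 2 of 3 members higher in WAT (median 3.18). Of leukocyte miRNAs 3 of 5 tested were higher in WAT, miR-223-3p by at least 6.30, miR-142-5p by 3.67 and miR-146a-5p by 2.79 (median of the 5 2.79). MiR-223-3p, like miR-196a-5p, was at the lowest value in the 3 BAT libraries. Both passed the filter through white libraries alone, so that their difference from BAT was given by the filter and no p is given. Both are nevertheless among the miRNAs counted as higher here. The summed log2 level of the leukocyte miRNAs did not follow these differences, with 14.31 to 14.75 in BAT, 13.70, 13.94 and 16.79 in SAT 14, 19 and 20, and 13.26, 14.33 and 13.03 in VAT 14, 17 and 20. The abundant miR-150-5p, singled out after its values were seen, had means of 14.52 for BAT, 14.71 for SAT and 13.12 for VAT (WAT/BAT adjusted p = 0.456 in limma). Both tested endothelial miRNAs were higher, miR-126-3p by 1.97 and miR-126-5p by 0.91 (median 1.44). Of 3 red cell miRNAs miR-486-5p was lower by -2.54, while miR-451a was higher by 1.52 and miR-144-5p by 0.66 (median 0.66). MiR-144-5p was at the lowest value in BAT and in SAT, with a mean of 4.64 in VAT. It passed the filter through VAT alone, so that its difference from BAT was given by the filter. Of 6 epithelial miRNAs 2 were tested and neither passed (median 2.83). Their summed log2 level was at the lowest value in BAT and ranged from 5.60 to 14.35 in SAT and from 4.07 to 10.23 in VAT. MiR-191-5p, to which the qPCR of the study was scaled, had between 15.56 and 16.38 in the 9 libraries. Values relative to it moved every VAT/SAT difference by 0.17. The part of these cell types in the miR-193 and miR-365 differences was not tested.

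Skeletal muscle miRNAs differed widely between libraries of one depot. MiR-133a-3p, a muscle miRNA, had 10.10, 17.20 and 18.67 in BAT 12, 15 and 20, from 9.85 to 10.79 in SAT, and 9.85, 12.59 and 17.20 in VAT 14, 17 and 20. The summed log2 level of the 8 muscle miRNAs ranged from 10.10 to 18.68 in BAT, from 9.85 to 10.79 in SAT and from 9.85 to 17.21 in VAT. Of the 4 that were tested 1 passed in WAT/BAT, miR-206-3p (-3.20), where 26.8% of all tested miRNAs were called lower. The median of the 4 was -3.23, and miR-208b-3p and miR-499-5p were at the lowest value in every library. BAT 12, with muscle miRNAs at the level of SAT, had the highest miR-193b-3p, miR-193b-5p and miR-365-1-5p of all libraries. BAT 20, with the most miR-133a-3p, had the lowest miR-193b-3p, miR-365-3p, miR-193a-5p and miR-193a-3p of BAT. It was above BAT 15 in miR-193b-5p (9.62 against 9.10) and miR-365-1-5p (8.75 against 8.40). Its miR-365-2-5p (8.16) was the highest of all libraries. Without BAT 15, BAT 20 and VAT 20, the libraries with miR-133a-3p above 17, miR-193b-3p differed by -4.23 in WAT/BAT, miR-193b-5p by -6.56, miR-365-3p by -1.84 and miR-193a-3p by 2.83. This choice was made after the data were seen, and leaves for BAT only BAT 12, the library with the highest miR-193b-3p, which is assumed to vary like the white libraries. The part of muscle RNA in the differences was not tested. MiR-365-2-5p was then not past the threshold (-3.23, adjusted p = 0.166 in limma).

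**Figure D5:**
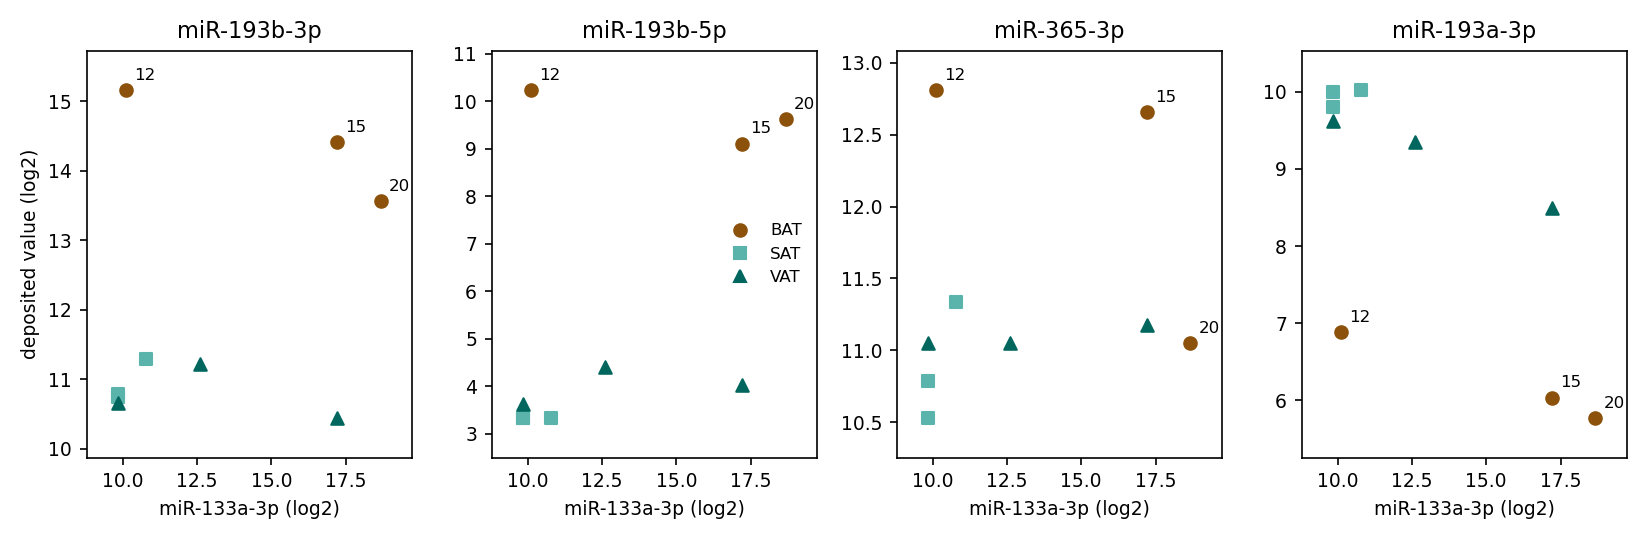
Levels (log2, vertical axes, each with its own range) of 4 miR-193 and miR-365 miRNAs against the muscle miRNA miR-133a-3p (log2, horizontal axes) in the 9 libraries, with the BAT libraries numbered. BAT 12 shares the miR-133a-3p level of the SAT libraries, near 10, and has the highest miR-193b-3p and miR-365-3p.

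Differences between depots went with base composition over the table. Of the 343 tested miRNAs 288 (84.0%) had a RefSeq sequence, and Spearman's rho between their G and C content and the WAT/BAT difference was -0.51 across miRNAs, which are not independent replicates. The 154 with a content of 50% or more had a median difference of -0.51, and the other 134 one of 1.24. All the miR-193 and miR-365 miRNAs but miR-365-3p (31.8%) belong to the first group, with 50% to 60.9%. In that group miR-193b-5p and miR-365-1-5p had the second and the third lowest difference, miR-193b-3p the place 19 from the lowest, and miR-193a-3p, with 50%, the place 4 from the highest. MiR-193b-3p, with a content of 59.1%, was lower in WAT than in BAT, and miR-193a-3p, with 50%, was higher. The part of base composition in these differences was not tested.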

How the data were processed

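Small RNA levels were measured in 9 libraries of HFD fed mice, 3 each from BAT, SAT and VAT. The authors aligned reads to the precursors of miRBase and counted those on mature miRNAs. A read with more than one place was divided among them, and counts were normalised to total usable reads with 40 added. The genome build in the submitters' processing notes is mm10, the same assembly as GRCm38. The deposited values are log2 values. The smallest is the log2 of 10 and not of 40, and values at a given rank are alike across libraries. Quantile normalization would give this and is not named, and it can move a level when abundant miRNAs differ between libraries. The sources differ on the sequencer. Read counts were not analysed here, the depth of each library is unknown, and no interval for counting error is given.

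Values were used as deposited. For each pairwise comparison the functions lmFit and eBayes of limma 3.58.1 (R 4.3.3) were run on the 6 libraries of both depots. WAT/BAT set BAT against the average of the white depots, on all 9. The test was two-sided, with Benjamini-Hochberg adjustment over 343 miRNAs and a threshold of 0.05. The authors name a test without moderation, which was an alternative. Differences within a library were compared with exact permutation tests (scipy 1.17.1, Python 3.11.15). The fit was tested on simulated data. The authors call the libraries of a depot biological replicates. Nothing beyond the numbers in the labels states whether libraries of different depots came from the same mouse. The p-values measure the spread between these libraries.

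Sequences are from RefSeq (GRCm38.p6), and all 7 miRNAs matched by name. The members, the lists and the tests were chosen with earlier results of these data known. Named were all members, the 3 closest profiles of 5 of them, miRNAs with a shared seed, the 3 largest called differences of each list (brown and beige fat, muscle, leukocytes, red cells, endothelium, epithelium, white fat of the hind body) and miR-191-5p. Other miRNAs named, among them muscle miRNAs, were chosen after their values were seen. Alternatives were other offsets, no filter, a filter on the mean, other scalings, 1 fit of all libraries, blocks by either number in the labels, no moderation and each library left out.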

Additional observations from a re-analysis of the deposited data

Results flagged for a closer look

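The difference of miR-193a-5p from BAT was not the same in the 2 white depots. VAT/BAT gave -2.05, whereas SAT/BAT gave -0.79, and the test of the difference itself, VAT/SAT, gave -1.25 (limma adjusted p = 0.0276), with each VAT library below each SAT library. Over 15 alternatives the adjusted p ranged from 0.0253 to 0.183, and 9 of them lost the call. No group has the 4 samples needed to look for a single library that stands apart.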

How the results depend on the processing

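No difference of a single miRNA changed direction past the threshold under any alternative. Of 439 alternative values of single miRNAs, 414 kept their side of the threshold, 20 lost the threshold and 5 gained it. Direction was checked only where a fit passed the threshold. Small differences short of it could change sign, as that of miR-193b-3p in VAT/SAT, which ranged from -0.39 to 0.0052. Limited to the miRNAs with the higher mean, where only 3 of the 7 were tested, 2 passed in VAT/BAT, 2 in SAT/BAT, 0 in VAT/SAT (1 at an unadjusted p under 0.05) and 3 in WAT/BAT. In VAT/SAT 2 of the 7 passed with the lowest value subtracted and 1 added, and 0 with no filter, relative to miR-191-5p, and without moderation. In these fits of limma 2 had an unadjusted p under 0.05, and the cause was not tested. Without one library it was 0 to 1, and 6 to 7 in VAT/BAT, 4 to 5 in SAT/BAT and 6 to 7 in WAT/BAT. A further 40 brought the miR-193b arm difference between WAT and BAT to 0.50, since it lifts the 5p arm (exact permutation p = 0.238). The arm difference of miR-365, 4.27, was 2.09 with a further 40 and 7.56 with an offset of 1 in place of 10.

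Without one library the miR-193b arm difference ranged from 2.06 to 2.75, that of miR-365 from 3.72 to 4.70 and that of miR-193a from 4.63 to 4.83. MiR-193b-3p minus miR-365-3p ranged from -2.57 to -2.19, miR-193b-3p minus miR-193a-3p from -7.02 to -6.73 and the share of miR-193a-3p from 27.1 to 30.5 percentage points. With a BAT library left out the smallest p is 0.0714, so that a lost call there says nothing.

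The title numbers shared by depots did not show that libraries are paired, with a mean correlation of deviations of 0.05 over 4 pairs. A replicate block by title number left 1 miRNA in VAT/SAT and 7 in WAT/BAT, and could not be fitted in VAT/BAT and SAT/BAT, which share 1 number. A replicate block by the source name number gave 6 in VAT/BAT, 4 in SAT/BAT, 0 in VAT/SAT (2 at an unadjusted p under 0.05) and 7 in WAT/BAT.

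Over all tested miRNAs the calls in VAT/BAT went from 227 to 128 with no filter and 120 with the higher mean, in SAT/BAT from 139 to 74 with no filter, and in WAT/BAT from 220 to 128 with the higher mean. In VAT/SAT they went from 55 to 4 with no filter, 2 relative to miR-191-5p, 30 in one fit of all libraries, 13 without moderation, 0 with the source name block and 0 to 49 without one library.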
